A study of Homo sapiens with 5 samples.

Results

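Methylated let-7a was set against a negative control in HCT116 cells, a human colorectal carcinoma line, in a Dicer-knockout background. Each side of the comparison is 1 library, named let7a-19A and negative control in the labels, and the measure is the difference of log2(TPM + 1), methylated let-7a minus control. TPM is a transcript abundance scaled for transcript length and for the total of its library. Genes entered when their mean over the 5 libraries of the study was at least 1 TPM, which kept 14180 of 57773 deposited gene identifiers. The study asked how methyl groups on microRNAs bear on the decay of their target mRNAs, and its other libraries carried native let-7a, methylated miR-17 (miR17-13A) and native miR-17. All 5 were transfected Dicer-knockout cells with 1 library each, so no difference below has a replicate check, and no test, error or p-value could be given. The labels do not say whether the line was 1 clone, what the control oligonucleotide was, or what kind of methyl group was used.

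let-7a is a member of one of the oldest microRNA families in animals, which rises as cells differentiate and is often reduced in cancers. Loaded into an Argonaute protein, it pairs through its seed, near its 5′ end, with matching sites in the 3′ untranslated regions (3′ UTRs) of mRNAs, and the bound complex recruits deadenylases that shorten the poly(A) tail and speed decay. Its known targets include fetal growth regulators, RAS genes and cell cycle genes. Dicer cuts most mature microRNAs out of their hairpin precursors and so sets the level of most of them.

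The mature human let-7a-5p sequence from RefSeq is shown first with its seed, bases 2 to 8, in capitals, and then with position 19, counted from the 5′ end, in capitals. The label number was read as that position, which holds an adenosine near the 3′ end, outside the seed. The transfected sequences themselves are not in the labels. The seed of miR-17-5p, the microRNA of the other 2 libraries, follows for comparison.
let-7a seed: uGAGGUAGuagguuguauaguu
let-7a position 19: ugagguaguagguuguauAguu
miR-17 seed: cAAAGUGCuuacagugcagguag
In GRCh38.p14 the mature let-7a-5p sequence is encoded on chromosome 9 at 94175962 to 94175983 (plus strand), on chromosome 11 at 122146568 to 122146589 (minus strand) and on chromosome 22 at 46112752 to 46112773 (plus strand). In RefSeq 11 human mature microRNAs share the let-7a seed, and 2 relatives are shown because they keep the seed and change the base at position 19.
let-7b: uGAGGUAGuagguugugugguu
let-7i: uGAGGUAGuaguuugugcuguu

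A seed match in an mRNA reads CTACCTC (7mer-m8), TACCTCA (7mer-A1) or both joined as CTACCTCA (8mer). Sites were searched on the sense strand of 3′ UTRs from GENCODE 29. The windows below show the 22 bases that would lie opposite let-7a in an ungapped duplex, 5′ to 3′, with the seed match in capitals at the right and, in capitals at the left, the base opposite position 19. They belong to targets lower than the control that are described further on. HMGA2, on chromosome 12, has 7 sites in an annotated 3′ UTR of 3003 bases, and all 7 are shown because it stood lowest of the listed targets.
HMGA2 site 1: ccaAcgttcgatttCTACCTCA
HMGA2 site 2: gacCtgaataccactTACCTCA
HMGA2 site 3: cccActactcaataCTACCTCt
HMGA2 site 4: tacCctccaagtctgTACCTCA
HMGA2 site 5: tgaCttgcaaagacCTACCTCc
HMGA2 site 6: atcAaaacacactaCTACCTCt
HMGA2 site 7: tctTaagtcccagtaTACCTCA
IGF2BP2, on chromosome 3, has 2 sites whose windows overlap. PBX2 on chromosome 6 has 2, and PLXND1 on chromosome 3, IRS2 on chromosome 13 and RIMKLA on chromosome 1 have 1 each.
IGF2BP2 site 1: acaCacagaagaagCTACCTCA
IGF2BP2 site 2: tacCtcaggtgttttTACCTCA
PBX2 site 1: tccGgacggcttactTACCTCA
PBX2 site 2: tctGactcagatatCTACCTCg
PLXND1 site: gcaGcccagaaactCTACCTCA
IRS2 site: aaaCgaccacagtcCTACCTCA
RIMKLA site: actCcacacttctgCTACCTCA
Sites in genes that lay above the control are shown beside them for comparison, DVL3 on chromosome 3 and EDEM3 on chromosome 1. Their seed matches are 8mers, as in PLXND1, IRS2 and RIMKLA.
DVL3 site: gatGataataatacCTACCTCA
EDEM3 site: tagAaacatctggtCTACCTCA

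Known let-7 targets were mostly lower with methylated let-7a than in the control, by small amounts. Of 190 listed targets, 156 passed the expression filter. Of these 125 were lower, 30 higher and 1 equal, against 56.1% lower and 41% higher among all genes tested. Their median difference was -0.16 (log2), against -0.04 over all genes. No listed target differed by 2-fold, and 8 were at least 1.5-fold lower, against 3.04% of all genes, and none was 1.5-fold higher, against 3.39%. The list was put together with results of these data known, so its counts describe it and carry no independent weight.

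Fetal growth regulators and RNA-binding proteins stood lowest among the target groups, with 16 of 20 tested members below the control and a median of -0.38. HMGA2, a DNA-bending chromatin protein of embryonic and tumour cells, had 28.1 TPM with methylated let-7a, 23.9 with native let-7a, 31.0 with methylated miR-17, 36.5 with native miR-17 and 56.0 in the control. Its TPM + 1 was 1.96-fold lower with methylated let-7a than in the control, a difference of -0.97. The control was the highest library, and both let-7a libraries were the lowest. Its 7 sites lie in the shorter 3′ UTR shown above, the longest one annotated holds none, and up to 4 miR-17 sites were found. Its relative HMGA1 had 2471 TPM with methylated let-7a and 2194 TPM in the control, a difference of 0.17.

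IGF2BP2, an RNA-binding protein that stabilises growth-related mRNAs and reads N6-methyladenosine, had 98.5 TPM with methylated let-7a, 91.9 with native let-7a, 119.4 with methylated miR-17, 125.9 with native miR-17 and 150 in the control. Both let-7a libraries lay below both miR-17 libraries, and these below the control. IGF2BP3, its paralog, had 10.4 TPM with methylated let-7a, 14.4 with native let-7a, 17.8 with methylated miR-17, 18.4 with native miR-17 and 13.7 in the control. Here methylated let-7a was the lowest library, and the control was not the highest. IGF2BP1 was at 0.5 TPM or below in every library and was not tested.

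PBX2, a homeobox cofactor of HOX proteins, had 32.8 TPM with methylated let-7a, 31.2 with native let-7a, 38.2 with methylated miR-17, 48.7 with native miR-17 and 51.6 in the control. PBX3 had 6.0 TPM with methylated let-7a, 4.7 with native let-7a, 4.7 with methylated miR-17, 4.8 with native miR-17 and 9.0 in the control. The 2 paralogs differed in their order. PBX2 was lowest in the let-7a libraries, whereas PBX3 was lower in every other microRNA library than with methylated let-7a. PLAGL2, a zinc finger activator of growth genes, had 17 TPM with methylated let-7a against 26.5 TPM in the control, a difference of -0.61. It had 13.7 TPM with native let-7a, 16.1 with methylated miR-17 and 18.4 with native miR-17, all below the control. Its relative PLAGL1 had 8.0 TPM with methylated let-7a against 11.4 TPM in the control, and no let-7a site was found in its annotated 3′ UTRs. ARID3A, a DNA-binding partner of E2F proteins, had 5.0 TPM against 7.1 TPM, with 3 sites in its 3′ UTR.

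LIN28B, the RNA-binding protein that blocks let-7 maturation, was listed at 0 in all 5 libraries. LIN28A, TRIM71, MYCN, PRDM1 and IGF2BP1 also failed the filter, which completes the 6 untested members of this group. DICER1, itself a let-7 target, had 12.5 TPM with methylated let-7a, 11.2 with native let-7a, 12.9 with methylated miR-17, 15.9 with native miR-17 and 15.4 in the control. The knockout could not be checked from them, because cells with intact Dicer were not analysed here. MYC, the growth-promoting transcription factor, had 265.0 TPM with methylated let-7a and 283.4 TPM in the control, a difference of -0.10, and has no let-7a site in its annotated 3′ UTRs.

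**Figure D1:**
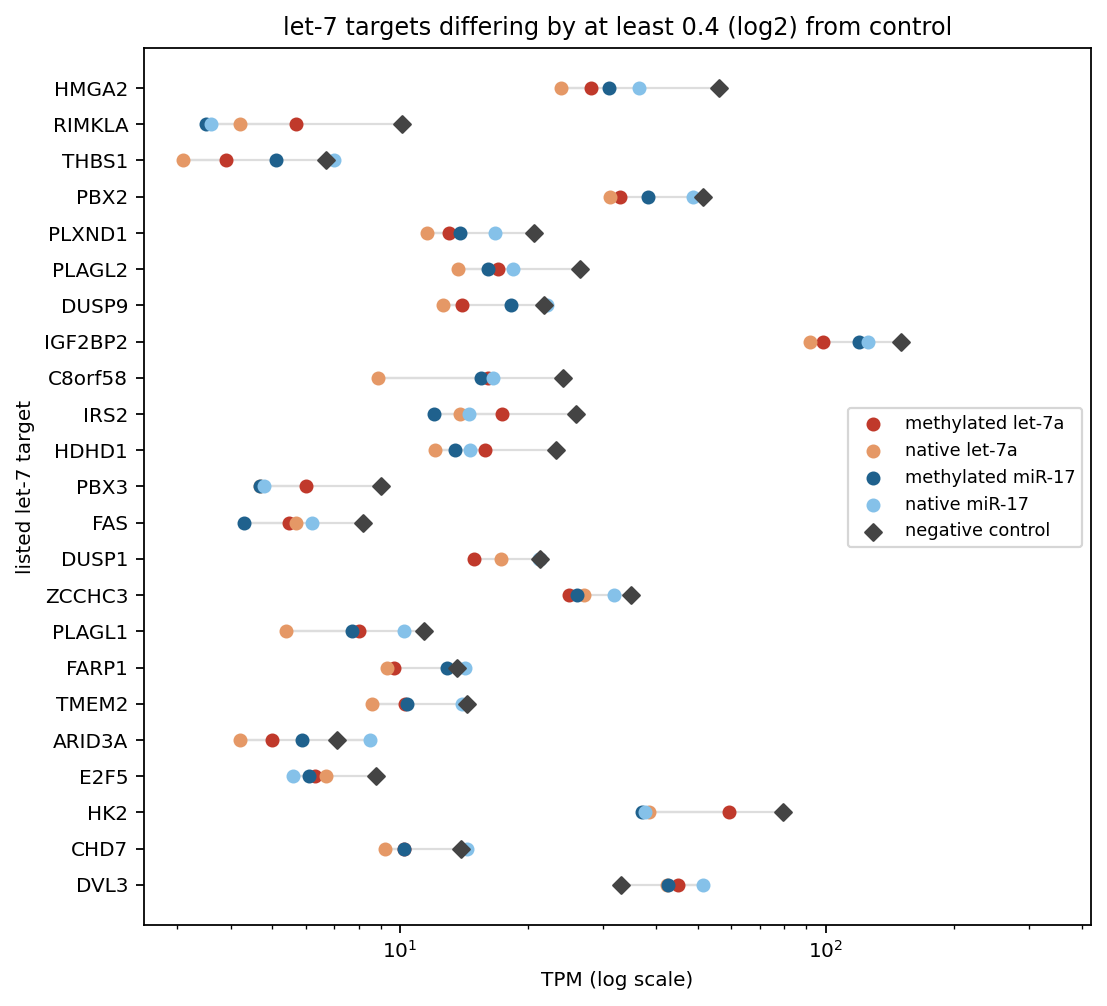
TPM (log axis) of the 23 listed let-7 targets with a mean of at least 5 TPM and a difference of at least 0.4 (log2) from the control, 1 point a library; diamonds are the control. HMGA2 has 28.1 TPM with methylated let-7a and 56.0 TPM in the control, and DVL3 at the bottom is the 1 gene plotted whose methylated let-7a point lies above the control.

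Signalling targets were lower in 27 of 33 tested members, with a median of -0.12. IRS2, an adaptor of the insulin receptor, had 17.4 TPM with methylated let-7a, 13.8 with native let-7a, 12 with methylated miR-17, 14.5 with native miR-17 and 25.9 in the control. DUSP9, a phosphatase of MAP kinases, had 14 TPM with methylated let-7a, 12.6 with native let-7a, 18.2 with methylated miR-17, 22.2 with native miR-17 and 21.8 in the control. For IRS2 all 4 microRNA libraries lay below the control, whereas for DUSP9 native miR-17 was slightly above it and both let-7a libraries were lowest. THBS1, a secreted glycoprotein that restrains vessel growth, had 3.9 TPM with methylated let-7a against 6.7 TPM in the control. The death receptor FAS had 5.5 TPM against 8.2 TPM, and the phosphatase DUSP1 had 14.9 TPM against 21.3 TPM. With methylated and native miR-17, FAS was also below the control, at 4.3 and 6.2 TPM, whereas DUSP1 was level with it, at 21.3 and 21.2 TPM. Members above the control included CPEB2 and CPEB3, regulators of poly(A) tail length, with differences of 0.48 and 0.41. Both averaged below 5 TPM, where differences scatter more. Of genes with means of 1 to 5 TPM, 6.85% passed 2-fold, against 2.17% of all genes tested.

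NRAS, a RAS gene and an early recognised let-7 target, differed by -0.29. It had 82.4 TPM with methylated let-7a, 73.3 with native let-7a, 90.3 with methylated miR-17, 97.8 with native miR-17 and 100.8 in the control. NRAS has 2 let-7a sites in its longest 3′ UTR. HRAS had 96.3 TPM with methylated let-7a and 86.1 TPM in the control, a difference of 0.16. RRAS2, a RAS relative outside the target lists, was higher, at 50.1 TPM with methylated let-7a and 27.4 TPM in the control.

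Cell cycle targets were lower in 16 of 18 tested members, all by less than 1.5-fold, with a median of -0.14. AURKB, a kinase of chromosome segregation, had 34.2 TPM with methylated let-7a against 43.8 TPM in the control, a difference of -0.35. CDC25A, the phosphatase that activates cyclin-dependent kinases at S phase, had 7.1 TPM with methylated let-7a, 5.7 with native let-7a, 6.6 with methylated miR-17, 7.1 with native miR-17 and 8.4 in the control. CDK6, a G1 kinase, had 56.0 TPM against 59.8 TPM, and its partner CCND1 had 373.1 TPM against 382.4 TPM. The differences of these last 2, at -0.09 and -0.04, were near the median of all genes.

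Among the 85 tested members of the remaining target group 66 were lower, with a median of -0.15. RIMKLA, an enzyme that joins glutamate to N-acetylaspartate, had 5.7 TPM with methylated let-7a, 4.2 with native let-7a, 3.5 with methylated miR-17, 3.6 with native miR-17 and 10.1 in the control. PLXND1, a semaphorin receptor, had 13.0 TPM with methylated let-7a, 11.6 with native let-7a, 13.8 with methylated miR-17, 16.7 with native miR-17 and 20.6 in the control. The control was the highest library for both genes. DVL3, a cytoplasmic relay of Wnt signals, was the target furthest above the control among those with a mean of at least 5 TPM, at 44.9 TPM with methylated let-7a and 33.1 TPM in the control. It had 42.3 TPM with native let-7a, 42.7 with methylated miR-17 and 51.6 with native miR-17, so the control was its lowest library. HK2, a hexokinase in both the target and the glycolysis lists, had 59.3 TPM with methylated let-7a, 38.5 with native let-7a, 37.1 with methylated miR-17, 37.6 with native miR-17 and 79.5 in the control.

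The 4 comparisons of a microRNA library with the control share that control library. Over the 156 targets the median against the control was -0.16 with methylated let-7a, -0.24 with native let-7a, -0.24 with methylated miR-17 and -0.06 with native miR-17. Against the mean log2 level of the 2 miR-17 libraries the median of the targets with methylated let-7a was 0.0020, and for the growth and RNA-binding group it was -0.16. Methylated let-7a lay above native let-7a for 112 of the 156 targets and below it for 42, against 39.8% above and 57.1% below among all genes tested. The cell cycle targets went the other way, with 6 above native let-7a, 12 below it and a median of -0.13. Each of the other target groups had more members above native let-7a than below it.

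**Figure D2:**
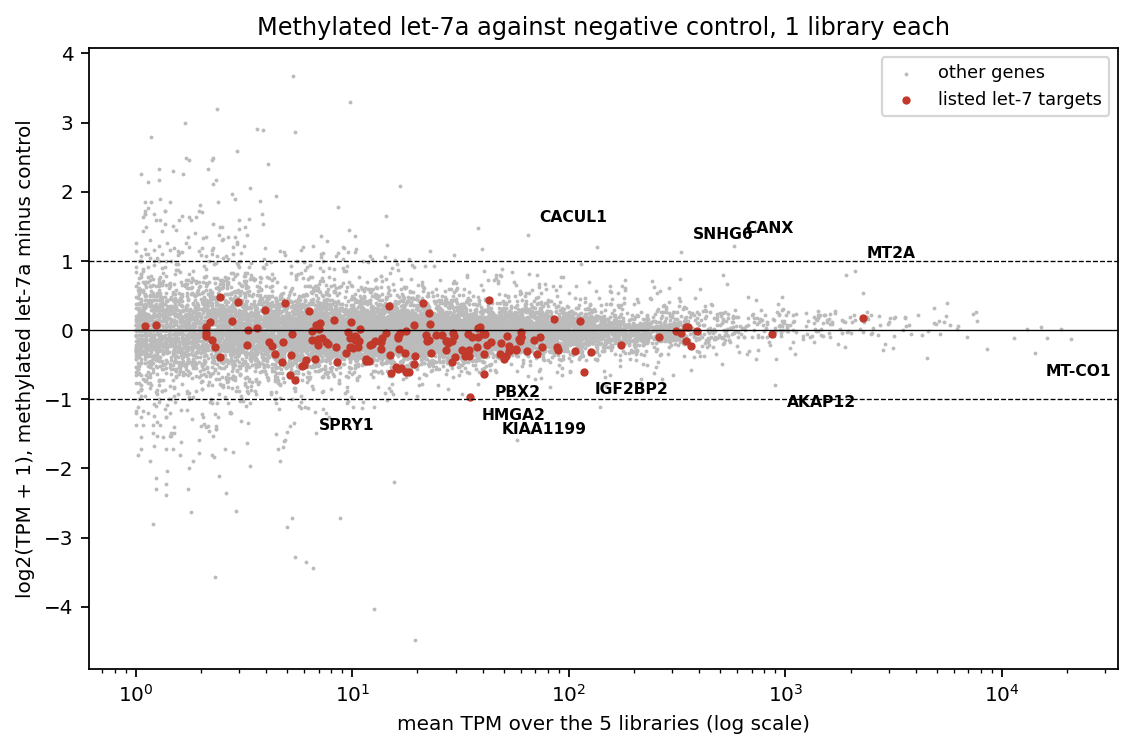
Difference of log2(TPM + 1), methylated let-7a minus control, against mean TPM over the 5 libraries (log axis), 1 point a gene for 14180 genes; red points are the 156 tested let-7 targets and dashed lines mark 2-fold. The red points lie mostly just below 0, with HMGA2 nearest the lower line, and most genes past 2-fold have means under 5 TPM.

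Genes chosen by sequence alone gave a smaller difference in the same direction. Among 12023 genes whose longest annotated 3′ UTR had 50 bases or more, 2159 held a let-7a site there. Their median difference was -0.075 with 64.8% lower than the control, against -0.037 and 56.9% for the 9864 genes without a site. The median was -0.067 for the 813 genes whose best site was a 7mer-A1, -0.075 for 821 genes with a 7mer-m8 and -0.082 for 525 genes with an 8mer. Of the 8mer genes, 67.0% were lower than the control. HMGA2, whose longest annotated 3′ UTR holds none, counts here as a gene without a site. The other libraries were set against the same control. With native let-7a the median was -0.074 for genes with a site and 0.015 for genes without one. With methylated miR-17 these medians were -0.13 and -0.059, and with native miR-17 they were 0 and 0.014. A lower median for genes with a site was therefore not particular to methylated let-7a.

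The number of sites did not order the genes throughout. Genes with 2 sites had a median of -0.11 and 73.4% lower (327 genes), and genes with 3 or more had a median of -0.062 and 62.8% lower (78 genes). The difference between genes with and without a site was widest among short 3′ UTRs. With UTRs of up to 797 bases the median was -0.11 for 196 genes with a site and -0.011 for 3817 genes without one. Above 2147 bases it was -0.064 for 1392 genes with a site and -0.050 for 2616 without.

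The base opposite the labelled position 19 was also read for each gene's best site. Genes with T there, which can pair with the adenosine, had a median of -0.078 (592 genes), and genes with another base had a median of -0.073 (1557 genes). Among 8mer genes the medians were -0.099 with T (119 genes) and -0.078 with another base (402 genes). Ungapped pairing at let-7a positions 13 to 16, the usual region of supplementary pairing, went with medians of -0.067 for 0 or 1 pairs, -0.086 for 2 pairs and -0.10 for 3 or 4 pairs, the last in 121 genes. This order was not particular to let-7a. With methylated miR-17 over the same control the medians were -0.13, -0.14 and -0.16. Methylated let-7a against the mean of the miR-17 libraries gave -0.0033, 0.0010 and -0.0085.

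Because the miR-17 libraries did not receive let-7a, they served as another reference for genes without a miR-17 site. The 1078 genes with a let-7a site and no miR-17 site had a median of -0.085 against the control and -0.086 against the mean of the miR-17 libraries. The 7158 genes with neither site had medians of -0.035 and -0.043. The 2 averaged miR-17 libraries differed from each other. Against the control, the genes with a let-7a site alone had medians of -0.057 with methylated miR-17 and 0.057 with native miR-17. Genes with neither site had -0.0099 and 0.054. The median 3′ UTR length was 1916 bases for the genes with a let-7a site alone and 815 bases for those with neither. When all genes with a let-7a site were taken, including 1081 with a miR-17 site, the median against the miR-17 libraries was -0.0032.

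**Figure D3:**
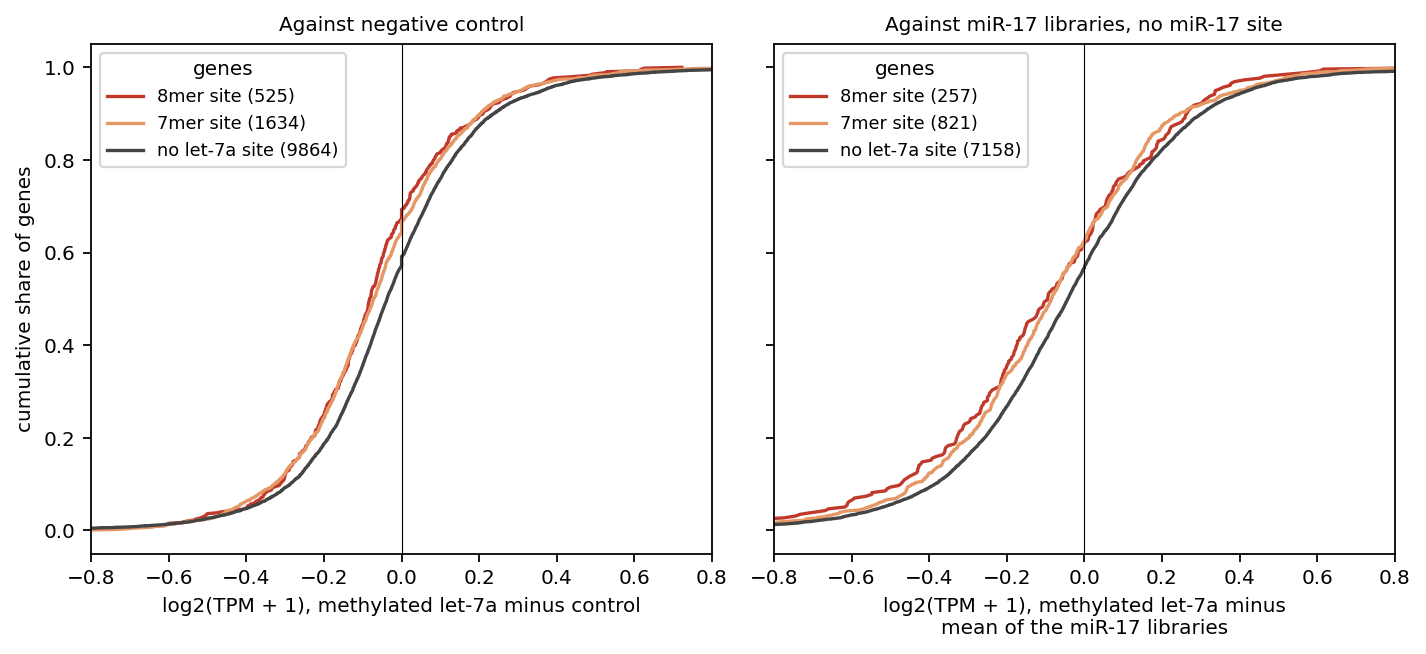
Cumulative share of genes by difference of log2(TPM + 1) for methylated let-7a, against the control (left, all searched genes) and against the mean of the miR-17 libraries (right, genes without a miR-17 site), by best let-7a site. In the left panel 67.0% of 8mer genes and 56.9% of genes without a site lie below 0, and the curves of 7mer and 8mer genes run close together.

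Outside the target lists, individual 8mer genes lay on both sides of the control. SEMA4F, a semaphorin, had 7.9 TPM with methylated let-7a, 8.4 with native let-7a, 9.7 with methylated miR-17, 12.6 with native miR-17 and 13.7 in the control. CTPS2, which makes cytidine triphosphate, had 7.4 TPM against 11.8 TPM, and CDKAL1, a tRNA-modifying enzyme, had 7.9 TPM against 12.5 TPM. FAM222B, with 2 8mer sites, had 20.2 TPM against 32.3 TPM. With methylated and native miR-17, FAM222B was also below the control, at 17.2 and 20.8 TPM. CTPS2 had 12.5 and 11.3 TPM in these libraries, near the control, and CDKAL1 had 18.1 and 19 TPM, above it. On the other side, EDEM3, which trims mannose from misfolded glycoproteins in the endoplasmic reticulum (ER), had 16.3 TPM with methylated let-7a and 10.3 TPM in the control. The kinase gene ABL2 had 24.4 TPM against 17.5 TPM.

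Most genes past 2-fold had low levels. At least 2-fold higher were 167 genes (1.18%) and at least 2-fold lower 140 genes (0.987%). Of these, 126 and 107 had a mean below 5 TPM, against 3400 of all 14180 genes tested. Listed at 0 in methylated let-7a or in the control were 58 of the genes higher and 51 of those lower. Of all genes tested, 13927 were above 0 in all 5 libraries. Among 24 searched genes at least 2-fold lower, 1 held a let-7a site, and among 36 at least 2-fold higher, 3 did, against 2159 of all 12023 searched genes. Protein-coding genes made up 52 of the genes higher and 41 of those lower, against 12250 of all 14180 genes tested. The control stood above all other libraries in 75 of the 140 lower genes (53.6%), against 26.5% of all genes tested, and below all others in 105 of the 167 higher genes (62.9%), against 21.1%. Methylated let-7a stood below all other libraries in 72 of the 140 lower genes (51.4%), against 18.7% of all genes tested. It stood above all others in 77 of the 167 higher genes (46.1%), against 9.94%. Since the control and methylated let-7a also defined these genes, their places in both are a description.

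Outside the lists, protein-coding genes averaging 20 TPM or more were ranked by their difference, and the 15 furthest in each direction considered. Lowest of all was CTD-2545G14.7, at 31.7 TPM with methylated let-7a and 97.7 TPM in the control, followed by KIAA1199. KIAA1199, also called CEMIP, a hyaluronan-degrading protein raised in colon tumours, had 32.8 TPM with methylated let-7a, 30.3 with native let-7a, 33.2 with methylated miR-17, 44.9 with native miR-17 and 75.3 in the control. AKAP12, a scaffold for protein kinase A, had 758.2 TPM with methylated let-7a, 653.3 with native let-7a, 834.0 with methylated miR-17, 942.5 with native miR-17 and 1310 in the control. For both genes every microRNA library lay below the control. EFNB2, an ephrin ligand of neighbouring cells, had 31.9 TPM against 55.7 TPM. PVRL3, the adhesion protein nectin-3, had 22.4 TPM against 36.5 TPM.

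Several of the genes furthest above the control were level across the microRNA libraries. CACUL1, a cullin-domain regulator of the cell cycle, had 75.9 TPM with methylated let-7a, 76.0 with native let-7a, 66.0 with methylated miR-17, 76.1 with native miR-17 and 28.7 in the control. CANX, the ER chaperone calnexin, had 666.2 TPM with methylated let-7a, 631.3 with native let-7a, 602.4 with methylated miR-17, 698.1 with native miR-17 and 287.2 in the control. The 4 microRNA libraries lay close together and the control apart for both. The same order held for MNAT1, a subunit of the CDK-activating kinase, at 24.2 TPM against 10.4 TPM in the control. It held too for SNHG6, a noncoding snoRNA host, at 354.4 TPM against 161.7 TPM, and for YTHDF2, a reader of N6-methyladenosine, at 112.5 TPM against 72.0 TPM.

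Metallothioneins, small proteins that bind zinc and copper, were among the abundant genes furthest above the control. MT2A had 2757 TPM with methylated let-7a, 2819 with native let-7a, 1954 with methylated miR-17, 1430 with native miR-17 and 1527 in the control. MT1E had 2365 TPM with methylated let-7a, 2609 with native let-7a, 1786 with methylated miR-17, 1408 with native miR-17 and 1357 in the control. Methylated miR-17 lay between the let-7a libraries and the control for both. The family was gathered after these values were seen. Of 7 tested members 5 were higher, and over its 10 listed members TPM summed to 5551 with methylated let-7a and 3151 in the control.

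The gene lists that follow can be read against all genes tested, of which 56.1% were lower and 41% higher with a median of -0.04. Genes of the hypoxia and glycolysis list were lower in 45 of 47 tested members, with a median of -0.29, the lowest outside the target lists. ANGPTL4, a secreted inhibitor of lipoprotein lipase, had 32.8 TPM with methylated let-7a, 12.7 with native let-7a, 10.7 with methylated miR-17, 11.3 with native miR-17 and 57.5 in the control. SLC2A1, the glucose transporter GLUT1, had 406.1 TPM with methylated let-7a, 235.7 with native let-7a, 286.8 with methylated miR-17, 300.5 with native miR-17 and 608.6 in the control. PLOD2, a lysyl hydroxylase of collagen, had 28.5 TPM with methylated let-7a, 18.6 with native let-7a, 19 with methylated miR-17, 19.6 with native miR-17 and 52.2 in the control. In all 3 genes methylated let-7a lay between the other microRNA libraries and the control. Over the list, methylated let-7a was above native let-7a in 44 of 47 genes (39.8% of all genes), by a median of 0.36, and above the mean of the miR-17 libraries by a median of 0.47.

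Glycolytic enzymes of the list were among those lower, with differences of -0.38 for PGK1, -0.32 for LDHA, -0.29 for ENO1 and -0.27 for GAPDH. The 2 members above the control were ANKRD37 and PFKL, the liver-type phosphofructokinase, which had 38.0 TPM against 30.8 TPM. The oxygen-sensing regulators had a median of -0.02 over 8 genes. EPAS1, the HIF-2 alpha subunit, had 44.6 TPM with methylated let-7a and 47.9 TPM in the control. The core hypoxia response element ACGTG, sought on both strands of RefSeq promoters (windows of 300 bases about the gene start), was present in 21 of 42 matched members (50%), against 26.7% of tested genes. That table held a promoter for 10486 of the 14180. Median differences were -0.34 with the motif and -0.26 without. A window of the PLOD2 promoter on chromosome 3 (GRCh38.p14), starting 8 bases before the motif in capitals, shows 1 such match.
PLOD2 promoter: cagtccagACGTGgggcccag

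Responses to TGF-beta and BMP signals were lower in 23 of 25 tested genes, with 2 equal and a median of -0.26. BAMBI, a decoy receptor of the pathway, had 27.2 TPM with methylated let-7a, 23.2 with native let-7a, 30.1 with methylated miR-17, 28.3 with native miR-17 and 52.4 in the control. SMAD7, the inhibitory SMAD, had 7.6 TPM with methylated let-7a, 5.4 with native let-7a, 8.8 with methylated miR-17, 11.3 with native miR-17 and 14.2 in the control. The control was the highest library in each. ID3, a dominant-negative helix-loop-helix protein induced by BMP, had 199.8 TPM against 307.8 TPM. Against the miR-17 libraries the list's median was -0.05.

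Feedback regulators and ligands of the MAP kinase pathway were lower in 23 of 28 genes, with a median of -0.18. SPRY1, an inhibitor of receptor tyrosine kinase signalling, was the 1 member past 2-fold, at 5.5 TPM with methylated let-7a, 3.5 with native let-7a, 3.8 with methylated miR-17, 5.1 with native miR-17 and 13.2 in the control. ERRFI1, an inhibitor of the EGF receptor, had 532.7 TPM against 747.3 TPM, and EGFR itself had 36.1 TPM against 51.7 TPM. EPHA2, an ephrin receptor, was higher, at 305.5 TPM against 209.9 TPM. Immediate early genes were lower in 18 of 27, with EGR1 at 69.1 TPM against 111.9 TPM and JUND, on the higher side, at 255.0 TPM against 184.7 TPM. Wnt and colon stem genes were lower in 22 of 26, with a median of -0.18, among them NOTUM, a secreted Wnt deacylase, at 23.5 TPM against 35.6 TPM. SP5, a Wnt-induced transcription factor, was higher at 6.8 TPM against 4.0 TPM. Integrins were lower in 9 of 10, with ITGB8 at 8.2 TPM against 13.0 TPM.

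**Figure D4:**
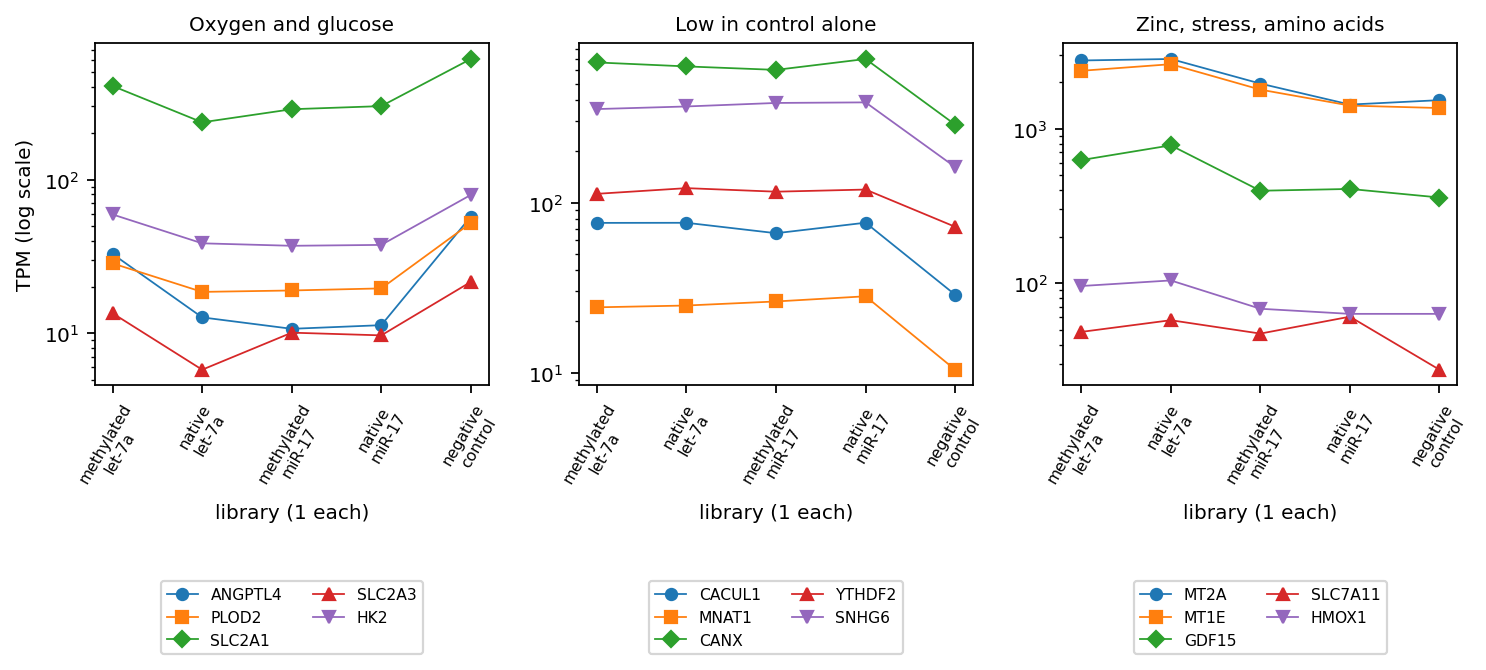
TPM (log axis) in each of the 5 libraries for genes of oxygen and glucose use (left), genes whose lowest library was the control (middle), and zinc, stress and amino acid genes (right); lines join the points of a gene and mark no order in time. ANGPTL4 and SLC2A1 are highest in the control with methylated let-7a next, and CANX and CACUL1 are level across the microRNA libraries and lowest in the control.

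Genes of the amino acid response driven by ATF4 were higher in 28 of 35 tested members, with a median of 0.18. GDF15, a secreted stress cytokine, had 625.0 TPM with methylated let-7a, 778.5 with native let-7a, 395.8 with methylated miR-17, 406.6 with native miR-17 and 357.9 in the control. SLC7A11, the cystine transporter, had 48.3 TPM with methylated let-7a, 57.5 with native let-7a, 47.1 with methylated miR-17, 60.6 with native miR-17 and 27.5 in the control. The control was the lowest library for both. NUPR1, a stress-induced chromatin factor, was instead lowest with methylated let-7a, at 32.8 TPM, against 100.3 TPM with methylated miR-17 and 38.8 TPM in the control. The level of methylated let-7a was below that of native let-7a in 32 of the 35 genes, against 57.1% of all genes.

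Cytosolic tRNA synthetases, which charge tRNAs and are partly under ATF4, were higher in 14 of 20, with a median of 0.07. CARS, EPRS and NARS had 58.7, 176.2 and 161.2 TPM with methylated let-7a, against 45.1, 137.2 and 125.6 TPM in the control. The ATF4 and CEBP composite motif TGATGNAA, sought on both strands, was present in the promoters of 6 of 16 matched synthetases (37.5%) and 5 of 28 matched ATF4-list genes (17.9%), against 1.58% of tested genes with a promoter. Synthetases with the motif had a median difference of 0.27 (6 genes) and those without 0.04 (10 genes). In the ATF4 list the medians lay closer, at 0.27 with the motif (5 genes) and 0.18 without (23 genes). The match in the ASNS promoter on chromosome 7 (GRCh38.p14), from asparagine synthetase of the ATF4 list, starts at base -68 relative to the gene start and is in capitals.
ASNS promoter: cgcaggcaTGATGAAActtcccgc

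Chaperones and the unfolded protein response of the ER were higher in 27 of 36, with a median of 0.15. CANX was described above. CRELD2, a secreted ER stress protein, had 42.9 TPM against 27.0 TPM, and MANF, an ER-resident survival factor, had 200.2 TPM against 146.1 TPM. P4HB, protein disulfide isomerase, had 963 TPM against 1088 TPM. The motif GATTGG, part of the ER stress response element, sought on both strands, was present in 22 of 33 matched promoters (66.7%), against 19.8% of tested genes, and the medians with and without it were 0.16 and 0.14. Interferon-stimulated genes were higher in 26 of 39, with IFITM1, a membrane protein that blocks virus entry, at 19 TPM against 8.8 TPM. IFIT1, which binds foreign RNA, and IFIT3 had 18.5 and 7.4 TPM with methylated let-7a, against 12.9 and 5.1 TPM in the control. The sensor DDX58 was at 21.1 TPM against 23.8 TPM.

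Ribosomal protein genes of the cytosol were higher in 79 of 81, by a median of 0.15, and summed to 157804 TPM with methylated let-7a and 141446 TPM in the control. RPL18 had 986.0 TPM against 711.1 TPM, and RPL4 had 2268 TPM against 2310 TPM. Nuclear-encoded respiratory chain genes were higher in 53 of 77, with NDUFB5, a complex I subunit, at 34.7 TPM against 19.6 TPM. Transcripts of the mitochondrial genome were lower in 11 of 13, by a median of -0.10, and held 11.7% of TPM with methylated let-7a and 12.6% in the control. MT-CO1, a core subunit of cytochrome oxidase, differed most among them, by -0.34. Since TPM is a share of the library, such abundant groups can shift the scale for all other genes. Here the ribosomal protein and mitochondrial transcripts moved in opposite directions. Leaving both groups out of the total gave 186 genes past 2-fold above the control and 158 below it, against 167 and 140 with them in.

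Cell cycle lists had medians of less than 0.1 in size. G1/S and replication genes were lower in 30 of 48 (62.5%), with a median of -0.066, and G2/M genes in 37 of 50 (74%), with a median of -0.094. GINS2, part of the replicative helicase, had 8.4 TPM with methylated let-7a, 9.5 with native let-7a, 17.3 with methylated miR-17, 17 with native miR-17 and 12.4 in the control. KIF4A, a mitotic kinesin, was higher, at 33.7 TPM against 22.2 TPM. All 50 G2/M genes lay below native let-7a, by a median of -0.26, and 41 of the 48 G1/S genes did so too, against 57.1% and a median of -0.034 over all genes. The listed targets of miR-17 were lower in 40 of 57, with a median of -0.06, against medians of -0.70 with methylated miR-17 and -0.54 with native miR-17 over the same control. CYBRD1, an iron reductase among them, had 21.9 TPM with methylated let-7a, 24.3 with native let-7a, 7.0 with methylated miR-17, 6.8 with native miR-17 and 32.8 in the control.

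**Figure D5:**
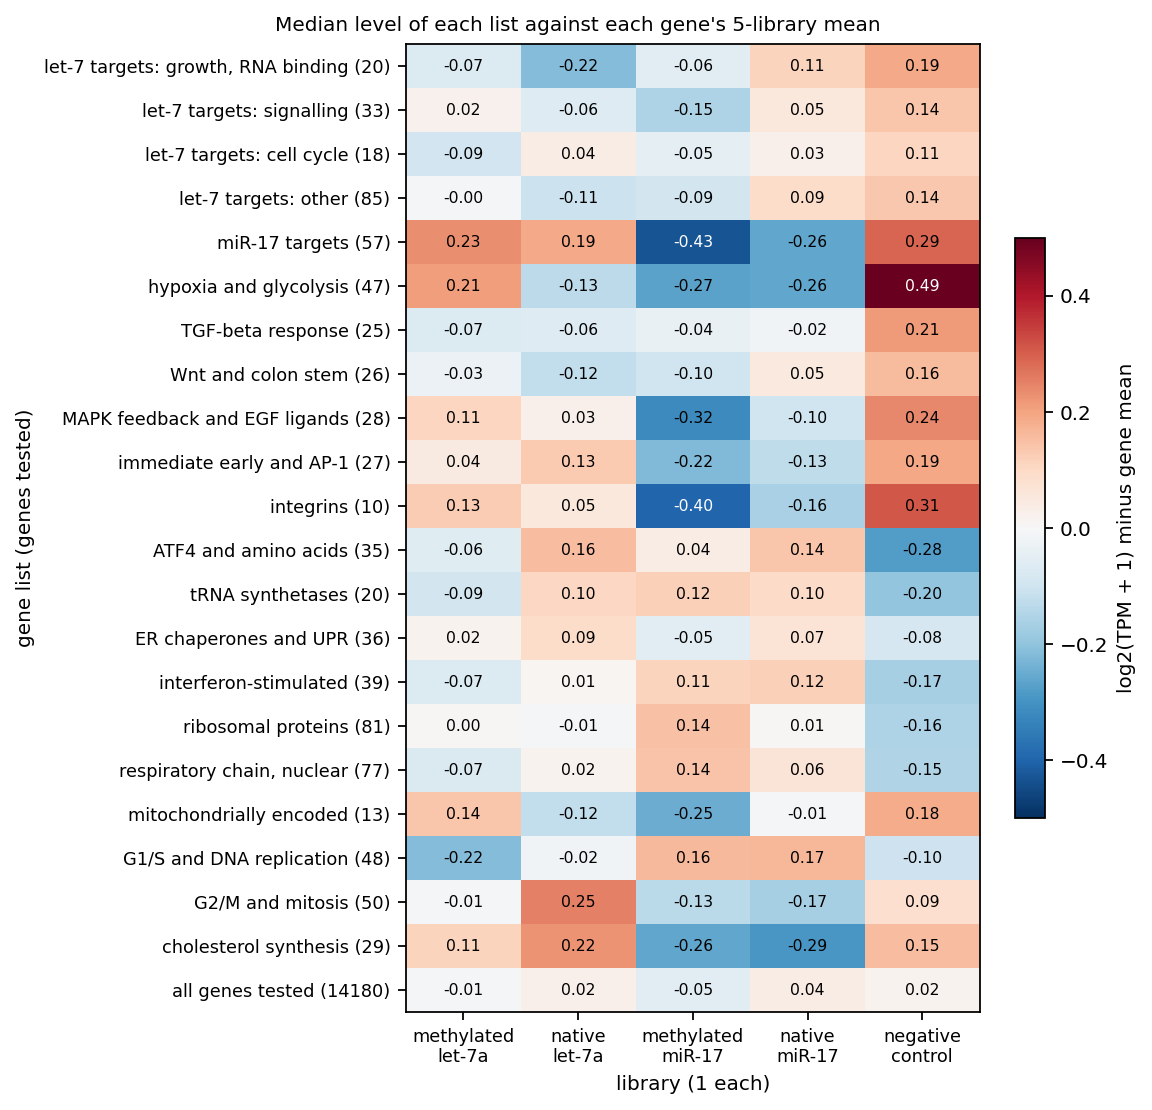
Median over each gene list of log2(TPM + 1) minus the gene's own mean over the 5 libraries, 1 column a library, with the number of genes tested in brackets; red is above and blue below the 5-library mean. For hypoxia and glycolysis methylated let-7a stands at 0.21 and the control, the highest column, at 0.49; for ATF4 and amino acid genes they stand at -0.06 and -0.28, the control being lowest.

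When the averaged miR-17 libraries took the place of the control, several list medians for methylated let-7a had the opposite sign. They were 0.47 for hypoxia and glycolysis, 0.30 for MAP kinase feedback, 0.38 for integrins, -0.14 for ATF4 genes, -0.20 for tRNA synthetases, -0.18 for interferon-stimulated genes, -0.17 for the respiratory chain and -0.079 for ribosomal proteins.

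Silencing proteins were near the control. The 42 genes of the Argonaute complex and of deadenylation and decapping had a median of -0.05, with AGO4 at 9.5 TPM with methylated let-7a and 12.9 TPM in the control. The cochaperone FKBP4 was highest of them, at 187.8 TPM against 126.2 TPM. The machinery of N6-methyladenosine had a median of -0.08 over 28 genes, and YTHDF2 and IGF2BP2, described above, were its highest and lowest members. Regulators of let-7 maturation were lower in 14 of 18, with MSI2, the Musashi RNA-binding protein, at 34.0 TPM against 45.5 TPM.

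The cell type given by the labels was checked against 8 epithelial markers, of which 7 had a mean of at least 1 TPM and VIL1 was listed at 0 throughout. Their summed level was 7523 TPM with methylated let-7a and 7617 TPM in the control. Of 8 fibroblast markers 1, COL1A1, reached 1 TPM, DCN, PDGFRA and THY1 were listed at 0, and the sums were 15.2 and 11.8 TPM. A longer list of mesenchymal and fibroblast genes was not near 0. Of its 27 members 12 were tested, and it summed to 4333 TPM with methylated let-7a and 3654 TPM in the control. LGALS1 held 2756 and 1905 TPM of these sums, and COL6A1 101.8 and 151.9 TPM. Blood and immune markers summed to 4.9 and 4.7 TPM, mostly LYZ, with HBB and PTPRC listed at 0, and endothelial markers to 0.3 and 0.4 TPM. ESAM, the 1 tested gene of a longer endothelial list, had 6.1 TPM with methylated let-7a and 4.8 TPM in the control. In bulk RNA, fewer cells of a type and less RNA per cell cannot be told apart.

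Noncoding and poorly annotated genes held the extremes of the comparison. MIR663A, the locus of a microRNA, had 36.3 TPM with methylated let-7a, 7.3 with native let-7a, 7.7 with methylated miR-17, 9.2 with native miR-17 and 10.9 in the control. It was high in 1 library alone. Among 587 antisense genes 13.1% passed 2-fold in either direction, against 0.759% of 12250 protein-coding genes and 2.17% of all genes tested. By level, 6.85% of genes with means of 1 to 5 TPM passed 2-fold, and 0.167% of those with means of 20 to 100 TPM.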

How the data were processed

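Dicer-knockout HCT116 libraries, 1 a group, were used. Isogen RNA was turned into libraries with a stranded TruSeq kit after ribosomal RNA depletion, per the labels' protocols. The authors deposited gene-level TPM values with 1 decimal, on hg19 per the submitters' processing notes; the sources used here do not name the aligner, counter or annotation. TPM keeps no sequencing depth, so no interval or detection limit is given, and a 0 was read only as listed at 0. How reads of overlapping or near-identical genes were assigned is not known.

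Differences are log2(TPM + 1), for genes averaging 1 TPM or more; the pseudocount understates changes of low genes. Of the deposited identifiers 90.6% were found in GENCODE 29, used on another build for 3′ UTR sequences and gene types alone. Counts at 2-fold are a rule of size. Gene lists and comparison were chosen with earlier results of these data known. The text names listed let-7 targets with a mean of at least 5 TPM and a difference of at least 0.4, fixed well-known targets, up to 4 leading and 2 opposite members of each list, the 15 coding genes (mean of at least 20 TPM) and 5 noncoding genes (10 TPM) furthest each way, and the 8 lowest and 4 highest 8mer genes; other names were chosen after their values were seen, and a few genes that the rule names are not reported here. Python 3.11.15, pandas 2.3.3 and numpy 2.4.6 were used, and the code was tested on simulated data. The alternatives tried were other pseudocounts, filters, scalings, references and site definitions.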

Additional observations from a re-analysis of the deposited data

How the results depend on the processing

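With 1 library a group, no leave-one-out was possible and no spread can be attached to any value. No paired analysis was possible because each group holds 1 library and the labels give no replicate numbers. The counts of genes at least 2-fold higher and lower, 167 and 140, were 295 and 252 with a pseudocount of 0.1, 21 and 21 with one of 5, 41 and 33 with a mean of at least 5 TPM, 290 and 259 with no filter, and 95 and 70 among genes above 0 in all 5 libraries, so they rest on genes of low level. Rescaling without mitochondrial and ribosomal protein genes gave 186 and 158.

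Of 42 lists with at least 5 tested genes, 18 had a median at least 0.1 from that of all genes, and 11 did so with a pseudocount of 5. The median of genes with a let-7a site, -0.075, was -0.060 with no filter and -0.082 for 8mer sites alone. It was -0.037 after centring on the median of all genes and -0.041 after TMM (trimmed mean of M values) scaling. Centring moves every gene equally, and TMM scaling divides the methylated let-7a library by 0.975, so genes without a site shift as well. Against the miR-17 libraries the median of genes with a let-7a site was -0.0032, with 1081 genes that also hold a miR-17 site included. The causes of the shifts with no filter, with 8mer sites and with the miR-17 libraries were not tested.

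Against the mean of the miR-17 libraries in place of the control, 26 of the 42 list medians and 131 of 289 named genes changed sign. Those among the 18 lists were let-7 targets 0.0020, other let-7 targets 0.0091, hypoxia and glycolysis 0.47, MAP kinase feedback 0.30, integrins 0.38, ATF4 -0.14, tRNA synthetases -0.20, interferon-stimulated genes -0.18, respiratory chain -0.17, ribosomal proteins -0.079 and nuclear long noncoding RNAs -0.042. Among the named genes at least 2-fold from the control, those changing sign were SPRY1 (0.26), IFITM1 (-0.18), SNHG6 (-0.12), MNAT1 (-0.16), RP11-442H21.2 (0.070) and AC005256.1 (-0.37). Other genes past 2-fold were not checked for this. Depth is unknown.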

Other observations

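Genes of the oxidative stress response to NRF2 were higher with methylated let-7a than in the control in 16 of 27 tested members, with a median difference of 0.078 (log2). HMOX1, the haem-degrading oxygenase, had 95.7 TPM with methylated let-7a, 104.0 with native let-7a, 68.2 with methylated miR-17, 63.2 with native miR-17 and 63.2 in the control. GCLM, a subunit of the enzyme that begins glutathione synthesis, had 15.4 TPM against 9.9 TPM in the control, and NQO1, a quinone reductase, had 348.8 TPM against 394.8 TPM. Both let-7a libraries were highest for HMOX1. SQSTM1, an autophagy receptor, had 337.0 TPM with methylated let-7a, 361.7 with native let-7a, 162.9 with methylated miR-17, 156.4 with native miR-17 and 273.5 in the control. Its level was thus above the control in both let-7a libraries and below it in both miR-17 libraries. Heat shock genes were divided, 12 higher and 15 lower of 27, with HSPD1, the mitochondrial chaperonin, at 733.5 TPM against 526.3 TPM and HSPA1A, the inducible HSP70, at 19.1 TPM against 29.5 TPM.

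Hosts of small nucleolar RNAs were higher in 11 of 13, with a median of 0.15, and GAS5, a noncoding host of this kind placed in the list of nuclear RNAs, had 329.5 TPM against 238.0 TPM in the control. NEAT1, the scaffold of paraspeckles, had 24.5 TPM with methylated let-7a, 27.2 with native let-7a, 47.7 with methylated miR-17, 49.8 with native miR-17 and 36.7 in the control, so that both let-7a libraries were lowest. Genes of the extracellular matrix had a median of -0.028 over 25 members. SPARC, a collagen-binding glycoprotein, had 4.3 TPM with methylated let-7a, 5.5 with native let-7a, 38.7 with methylated miR-17, 44.7 with native miR-17 and 8.2 in the control. COL6A1, a collagen VI chain, had 101.8 TPM against 151.9 TPM, and PLAU, the urokinase protease, had 363.7 TPM against 274.8 TPM. KRT23, a keratin of colon tumours, was lowest with methylated let-7a, at 201.7 TPM against 316.3 TPM in the control. Targets of p53 were higher in 19 of 33, against 41% of all genes, and proteasome genes were lower in 20 of 31 with a median of -0.059, near the 56.1% and -0.038 of all genes.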
